A study of Mus musculus with 16 samples.

Results

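Circadian clock genes were described as a set of 10 genes, chosen by name as Clock, Arntl, Npas2, Per1, Per2, Per3, Cry1, Cry2, Nr1d1 and Dbp, out of 18287 genes that the expression table names. All 10 were listed, with 33 of its 80137 transcripts. The level of a gene is here the sum of the FPKM values (a count of sequenced fragments scaled by transcript length and by library size) of the transcripts that carry its name. The choice used names and no measured value.

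The clock is a feedback loop of transcription that runs in most cells of the body. CLOCK, or NPAS2 in its place, pairs with the ARNTL protein (also called BMAL1) and switches on genes with an E-box in their control regions, among them the Period (Per) and Cryptochrome (Cry) genes, Nr1d1 and Dbp. PER and CRY proteins then block that pair, and NR1D1 (REV-ERB alpha) represses Arntl, so that across the day Arntl and Nr1d1 RNA rise and fall in opposite phase. DBP is a transcription factor that passes the rhythm on to other genes through D-boxes. The master clock sits in the suprachiasmatic nucleus of the hypothalamus. The hippocampus has a clock of its own, and Per1 and Per2 are also known to respond to stress hormones and to neural activity.

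The hippocampus of 16 wild type male C57BL/6 mice aged 3 months was sequenced, 4 mice a group, each mouse giving 1 total RNA library from both sides of its brain. HC mice (homecage) stayed in their cages with neither shock nor trials. Mice of the Ctrl group were put into the shuttle box on the first day, without inescapable shock, and had 30 trials of escapable shock (0.4 mA) on the next. Mice of the other groups took 180 inescapable shocks (0.4 mA) and then, 24 h later, the same 30 trials, and were sorted by how they escaped into learned helpless (LH) mice, with more failures and slower escape, and the remaining (NLH) mice. LH and NLH mice had the same schedule, but a shock ended when a mouse escaped, so that time under shock in the trials moved with the grouping. All mice lived under a reversed cycle of 12 h of light with light onset at 8 p.m. The study's methods state that all groups were killed at the same time point, 3 h after the test session of the tested mice, in the dark phase. The clock hour of each mouse is not given in the sources used here, so the part of time of day in any difference between groups was not tested.

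Summed over all transcripts, FPKM was 120208 to 158004 per mouse. Read counts per library were not used, and the depth behind each value is therefore not known here. Between 4872 and 7352 transcripts were listed at 0 in 14 mice, against 10846 in LH3 and 15504 in LH4, and the LH differences described singly below are therefore also given without both mice. All 10 markers of hippocampal neurons were listed, with a summed level of 312 to 557 FPKM per mouse and the ranges of the 4 groups overlapping one another. Of 7 markers of the suprachiasmatic nucleus and hypothalamus, Six6 and Sim1 were not listed, and Avp, a hormone made by clock neurons, was at most 0.106 FPKM. Vip, another of its neuropeptides that cortical interneurons also make, averaged 1.41, 2.24, 2.28 and 2.99 FPKM in HC, Ctrl, NLH and LH mice. The 5 listed markers summed to 1.47 to 2.56 FPKM in HC and 2.58 to 5.16 FPKM in LH mice without overlap, and to values between these in the other groups that overlapped with both. Choroid plexus markers, which show how much of that neighboring tissue was taken along, summed to between 1.59 and 86.2 FPKM, and both ends of that range were LH mice. Markers of endothelial cells summed to 11 to 13.1 FPKM in Ctrl and 13.8 to 22 FPKM in LH mice without overlap (HC 12.9 to 14.5, NLH 13 to 17), and those of thalamus and habenula reached 25.6 FPKM in an LH mouse against at most 12.3 FPKM in the other groups. The part of these markers in the results was not tested.

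The control regions of clock genes are shown because the loop runs through short motifs in them. RefSeq promoters (GRCm38) were matched by symbol for 9 of the 10 genes, with 13 start sites, and no entry was matched for Per2. The 250 bases before each start were searched on both strands for the E-box CACGTG, the D-box TTATGTAA or TTACGTAA, the RORE TAGGTCA that is bound by NR1D1, and the cyclic AMP response element TGACGTCA. The matches found did not overlap one another. The E-box was found in 2 of the 9 genes, Per1 and Cry1, the D-box in 1, Per3, and the RORE and the cyclic AMP response element in 0. Of 32841 mouse promoters of the same length, 6.02% held the E-box, 0.932% a D-box, 2.24% the RORE and 1.55% the cyclic AMP response element. The sequences below run 5′ to 3′ toward the start of the gene, with motifs in capitals. Per1 (chr11:69098699-69098948, plus strand) has its E-box 166 bases before the start, and Cry1 (chr10:85185055-85185304, minus strand) has one at 60 bases. Per3 (chr4:151044666-151044915, minus strand) has a D-box at 205 and another at 158 bases. Nr1d1 (chr11:98775378-98775627, minus strand) is added because its level had an unadjusted p under 0.05 in 3 comparisons, and none of the searched letters were in its window. For Nr1d1 and Cry2 the bases just after the RefSeq start were not found in a GENCODE vM21 transcript of the gene, so that the placing of these windows is less certain.
Per1: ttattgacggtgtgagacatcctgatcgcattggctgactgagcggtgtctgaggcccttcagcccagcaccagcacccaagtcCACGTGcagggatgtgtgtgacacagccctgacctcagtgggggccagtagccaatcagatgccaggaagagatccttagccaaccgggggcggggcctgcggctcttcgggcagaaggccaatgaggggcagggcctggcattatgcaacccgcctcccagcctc
Cry1: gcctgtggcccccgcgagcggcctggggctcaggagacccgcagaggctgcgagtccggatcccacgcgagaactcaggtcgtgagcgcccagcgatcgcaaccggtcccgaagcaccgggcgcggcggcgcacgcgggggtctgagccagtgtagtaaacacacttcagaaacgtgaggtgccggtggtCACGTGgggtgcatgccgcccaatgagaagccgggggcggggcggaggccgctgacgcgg
Per3: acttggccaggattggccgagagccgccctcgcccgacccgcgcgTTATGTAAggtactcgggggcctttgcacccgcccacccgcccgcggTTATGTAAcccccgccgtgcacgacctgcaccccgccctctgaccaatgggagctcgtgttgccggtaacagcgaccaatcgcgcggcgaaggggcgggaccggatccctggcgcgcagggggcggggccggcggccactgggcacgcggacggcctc
Nr1d1: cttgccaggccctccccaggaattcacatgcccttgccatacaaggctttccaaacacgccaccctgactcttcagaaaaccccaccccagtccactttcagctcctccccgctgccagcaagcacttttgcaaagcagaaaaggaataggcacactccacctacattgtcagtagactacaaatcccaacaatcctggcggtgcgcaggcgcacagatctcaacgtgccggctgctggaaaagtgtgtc

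Levels differed widely between the 10 genes. Averaged over the 16 mice, Cry2 was highest at 12.6 FPKM, followed by Dbp at 11, Clock at 10.0 and Per1 at 7.09. Nr1d1 (4.46 FPKM), Per3 (3.68), Arntl (3.15), Per2 (2.01) and Cry1 (1.8) came next, and Npas2 was lowest at 0.657. These are levels of named transcripts, and the order changed once the unnamed transcripts of the loci were added. Npas2 then averaged 2.46 FPKM, above Cry1, Per2 4.46 FPKM, above Arntl, and Per3 7.11 FPKM, while Nr1d1 at 8.77 FPKM passed Per1 at 8.64 FPKM and Clock came to 12.6 FPKM. Cry2 lay above 89.6% of the 18287 genes and Npas2 above 37.3%. In this order, the ranges over mice of neighbors overlapped for each of the 9 neighboring pairs, for example Clock (7.20 to 12.2) and Per1 (1.28 to 11.7). The spread of log2 levels within groups was 0.11 for Cry2, 0.14 for Arntl and 0.15 for Clock, against a median of 0.25 over the 10436 genes with a mean of at least 1 FPKM. Per1 and Npas2 varied far more, with a within-group SD of 0.74 and 0.81 on the log2 scale.

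**Figure D1:**
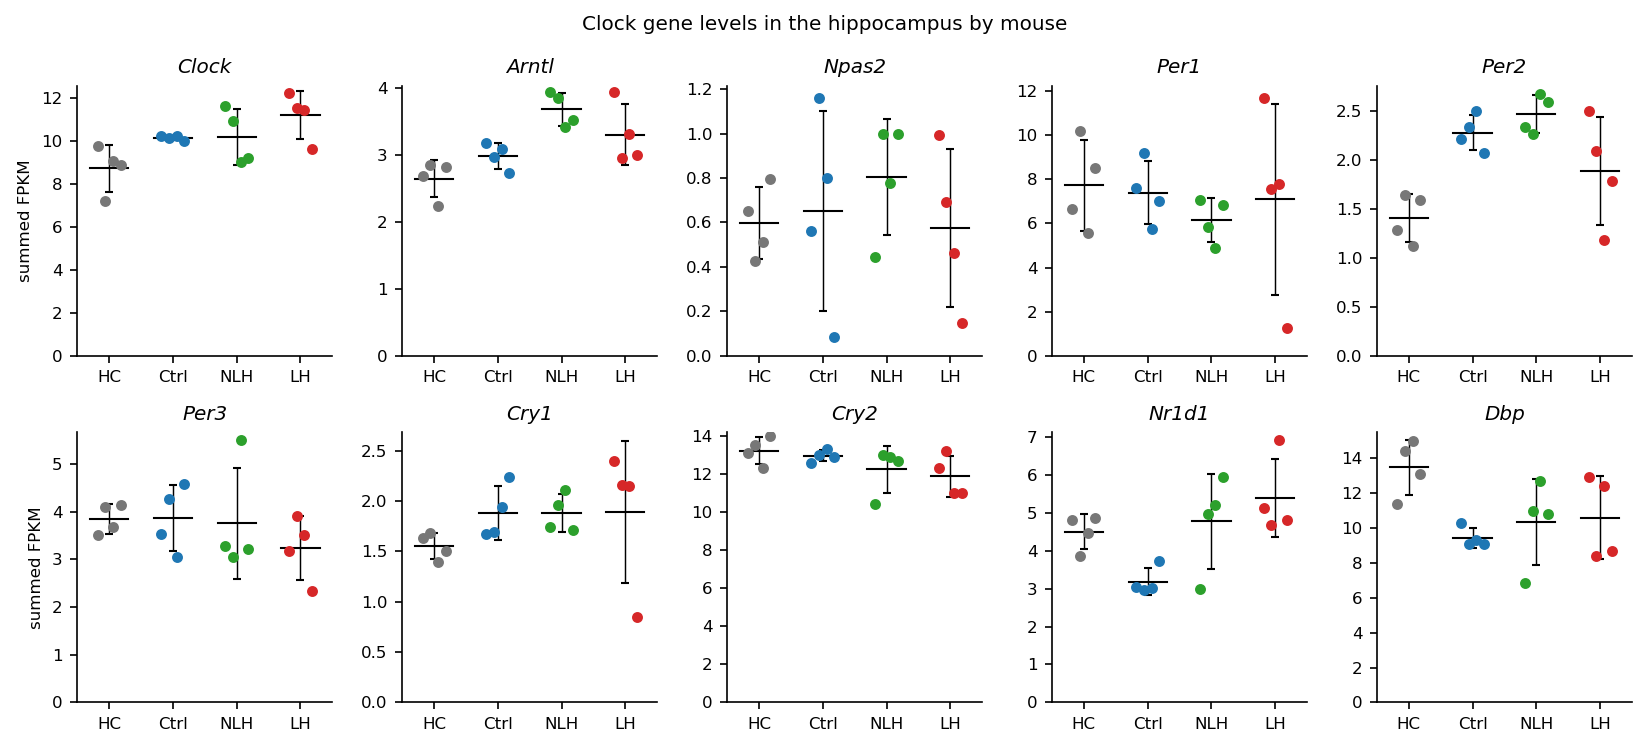
Summed FPKM of the 10 clock genes (vertical axes, linear, starting at 0) in the 4 mice of each group. Points are mice in the order of their numbers, horizontal lines are the mean and whiskers 1 SD (n = 4). Per2 is lower in every HC mouse (at most 1.64) than in every Ctrl mouse (at least 2.07), and Dbp is higher in every HC mouse.

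No clock gene passed the threshold of an adjusted p under 0.05 in any of the 4 comparisons (limma on log2(FPKM + 0.1), Benjamini-Hochberg adjustment over 18287 genes). Over all genes, 0% passed in Ctrl vs. HC, 0.00547% in NLH vs. Ctrl and 0% in LH vs. Ctrl, while the LH vs. NLH comparison gave 0.0109%. The LH vs. Ctrl background rested on LH3 and LH4, since 191 genes passed there without LH4 and 989 without both, with 17% and 24.3% of genes at an unadjusted p under 0.05, and the clock genes that passed still numbered 0. At an unadjusted p under 0.05, 3 of 10 clock genes differed in Ctrl vs. HC (2.7% of all genes), 2 in NLH vs. Ctrl (5.59%), 1 in LH vs. Ctrl (11.5%), while the LH vs. NLH comparison gave 1 (7.54%). With 10 genes the share in LH vs. Ctrl was near the background, and the Ctrl vs. HC count was the one farthest above it. Over the other settings these counts were 2 to 4, 1 to 2, 1 to 2 and 0 to 2. With the unnamed transcripts of the loci, described below, they were 2, 1, 1 and 0. The NLH vs. Ctrl count was 1 without Ctrl2, Ctrl4, NLH1 or NLH2, and that of LH vs. NLH was 0 in 16 of the 26. The values of the 2 groups did not overlap for 4 clock genes in Ctrl vs. HC (5.24% of all genes), for 1 in NLH vs. Ctrl (6.04%), for 1 in LH vs. Ctrl (5.59%), while the LH vs. NLH comparison gave 0 (2.11%). The F test over the 4 groups gave 0 clock genes at an adjusted p under 0.05 (0.0766% of all genes) and 4 at an unadjusted one (9.96%), namely Per2, Nr1d1, Arntl and Clock, and 2 with the unnamed transcripts (11.2% of all genes). The comparisons with Ctrl share the same 4 Ctrl mice and are not independent of one another. In RNA of a whole tissue, fewer cells that express a gene and less of its RNA per cell cannot be told apart. The labels name separate mice, but 4 mice against 4 cannot give a two-sided exact permutation p under 0.0286.

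**Figure D2:**
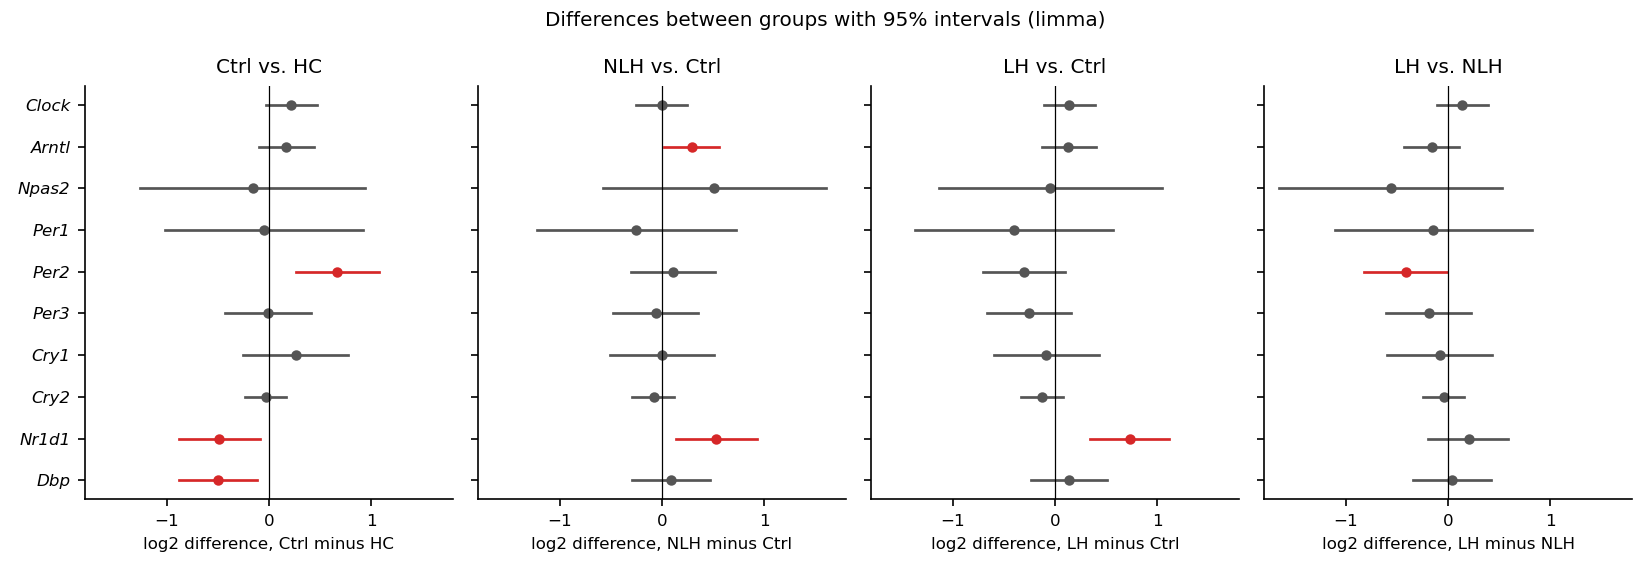
Log2 differences of the 10 clock genes (points) with their 95% intervals (lines) in the 4 comparisons, on a common horizontal axis of log2(FPKM + 0.1). Red marks an unadjusted limma p under 0.05, which holds for Per2, Nr1d1 and Dbp in Ctrl vs. HC, and no difference passed after adjustment.

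The activators are described first. Clock (ENSMUSG00000029238, chromosome 5, 76209868 to 76304792, minus strand, GRCm38) encodes the DNA-binding partner that gave the loop its name. Its level was 9.77, 7.20, 9.04 and 8.86 FPKM in the 4 HC mice and 10.2, 10.1, 10.2 and 10.0 FPKM in the 4 Ctrl mice. NLH mice had 11.6, 10.9, 8.99 and 9.18 FPKM and LH mice 12.2, 11.5, 11.4 and 9.61 FPKM. The Ctrl mice lay close together (SD 0.103 FPKM) and all above the HC mice, and the other groups overlapped with Ctrl. The Ctrl minus HC difference was 0.22 ± 0.12 (SE) on the log2 scale, with an unadjusted limma p of 0.0754, and 0.13 without HC2, the lowest mouse. The leading transcript of Clock, ENSMUST00000202651.3 with 49.8% of its FPKM, had another pattern. LH mice had 6.60, 5.67, 6.95 and 5.65 FPKM of it, all above the Ctrl mice at 4.38 to 4.95 FPKM (unadjusted limma p 0.0256, adjusted p 0.403). HC mice at 3.26 to 4.93 FPKM and NLH mice at 3.55 to 6.36 FPKM overlapped with Ctrl.

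Arntl (ENSMUSG00000055116, chromosome 7, 113207465 to 113314126, plus strand) encodes BMAL1, the obligate partner of CLOCK. HC mice had 2.68, 2.84, 2.24 and 2.82 FPKM, and Ctrl mice 3.17, 2.96, 3.08 and 2.73 FPKM. NLH mice had 3.93, 3.84, 3.42 and 3.52 FPKM, and LH mice 3.94, 2.95, 3.31 and 3.00 FPKM. In this summed level every NLH mouse lay above every Ctrl and HC mouse, while LH mice spanned both. NLH minus Ctrl was 0.29 ± 0.13 (SE) on the log2 scale, a ratio of 1.22, with an unadjusted limma p of 0.0347 and an adjusted p of 0.813. With median-ratio size factors, which scale mice to one another, the difference was 0.22 and the unadjusted limma p 0.121. The separation did not hold for the leading transcript of Arntl, ENSMUST00000047321.8, with 83.2% of its FPKM. For that transcript NLH4 stood at 1.96 FPKM, below all Ctrl mice at 2.19 to 2.81 FPKM. NLH minus Ctrl was there 0.24 ± 0.17 (unadjusted limma p 0.182).

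Npas2 (ENSMUSG00000026077, chromosome 1, 39193731 to 39363236, plus strand) encodes a relative of CLOCK that is made mainly in the forebrain. It ranged from 0.0868 FPKM in Ctrl4 to 1.16 FPKM in Ctrl2, so that the Ctrl group alone spanned the values of all other mice. The mean of the HC mice was 0.597 ± 0.161 FPKM (SD, n = 4), and those of the Ctrl, NLH and LH mice were 0.651 ± 0.449, 0.805 ± 0.261 and 0.574 ± 0.357 FPKM. The 95% interval of LH minus NLH ran from -1.66 to 0.53 on the log2 scale, so that even large differences of Npas2 could not be detected with these mice. That difference was -0.56 with all mice and 0.09 ± 0.56 (SE) without LH3 and LH4.

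Among the repressors, Per2 (ENSMUSG00000055866, chromosome 1, 91415982 to 91459324, minus strand) differed most between HC and Ctrl mice. Its level was 1.29, 1.64, 1.12 and 1.59 FPKM in HC mice and 2.22, 2.34, 2.50 and 2.07 FPKM in Ctrl mice. NLH mice had 2.34, 2.27, 2.68 and 2.59 FPKM, and LH mice 2.50, 2.09, 1.18 and 1.79 FPKM. All Ctrl and NLH mice lay above all HC mice, and the LH mice ran from the level of HC (LH3) to that of NLH (LH1). Ctrl minus HC was 0.67 ± 0.19 (SE) on the log2 scale, a ratio of 1.59 with a 95% interval of 0.26 to 1.08 in log2, an unadjusted limma p of 0.00311 and an adjusted p of 1. The exact permutation p was 0.0286, the smallest that 4 against 4 mice can give. With the unnamed transcripts of the locus, which held more FPKM than the named one, the difference was 0.34 ± 0.12. LH minus NLH was -0.41 ± 0.19, with an unadjusted limma p of 0.0475 and an adjusted p of 0.66. That difference was -0.22 without LH3 and -0.10 ± 0.16 without LH3 and LH4, where the unadjusted limma p was 0.528.

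Per1 (ENSMUSG00000020893, chromosome 11, 69095217 to 69109960, plus strand), the Period gene best known as an immediate response to light and to glucocorticoids, showed no ordering of the groups. It was 6.63, 10.2, 5.56 and 8.52 FPKM in HC mice and 7.59, 9.20, 5.76 and 7.00 FPKM in Ctrl mice. NLH mice had 7.08, 5.84, 4.89 and 6.84 FPKM, and LH mice 11.7, 7.58, 7.78 and 1.28 FPKM. The highest and the lowest of the 16 values were both LH mice, LH1 and LH4. LH minus Ctrl was -0.40 ± 0.46 (SE) on the log2 scale and 0.37 ± 0.25 without LH3 and LH4. Its sign also turned without LH4 alone (0.28) and with the unnamed transcripts of the locus (0.05), but not without LH3 alone (-0.56). The leading transcript of Per1, ENSMUST00000132462.7 (43.1% of its FPKM), has 496 bases in 3 exons and ranged from 0.331 to 6.87 FPKM. The 23-exon ENSMUST00000021271.13 (34%), named after its values had been seen, was 2.70 to 2.96 FPKM in Ctrl mice. It was 1.65 to 2.95 FPKM in HC, 0.513 to 3.17 FPKM in NLH and 0.533 to 3.68 FPKM in LH mice. Per3 (ENSMUSG00000028957, chromosome 4, 151003652 to 151044665, minus strand), the Period gene that the loop can run without, averaged 3.85 ± 0.313 FPKM (SD, n = 4) over the HC mice, and 3.86 ± 0.693, 3.76 ± 1.16 and 3.23 ± 0.674 FPKM over the Ctrl, NLH and LH mice. All 4 groups overlapped, and the highest mouse was NLH3 at 5.5 FPKM.

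Cry1 and Cry2 encode the cryptochromes, the strongest repressors of the CLOCK and BMAL1 pair. Cry1 (ENSMUSG00000020038, chromosome 10, 85131700 to 85185064, minus strand) was 1.63, 1.68, 1.40 and 1.5 FPKM in HC mice and 1.67, 1.69, 1.94 and 2.24 FPKM in Ctrl mice. In NLH mice it was 1.74, 1.96, 2.11 and 1.71 FPKM, and in LH mice 2.40, 2.16, 2.15 and 0.844 FPKM. HC and Ctrl overlapped only by 1 Ctrl mouse just below the highest HC mouse, and the lowest of all values was LH4. Cry2 (ENSMUSG00000068742, chromosome 2, 92403646 to 92434043, minus strand) was the steadiest of the set, from 10.4 FPKM in NLH1 to 14.0 FPKM in HC4. The HC mice averaged 13.2 ± 0.704 FPKM (SD, n = 4), and the Ctrl, NLH and LH mice 12.9 ± 0.268, 12.2 ± 1.24 and 11.9 ± 1.06 FPKM. The 95% interval of LH minus Ctrl ran from -0.33 to 0.08 on the log2 scale, a narrower interval than that of any of the other 9 genes. Without LH3 and LH4 this difference was -0.02 ± 0.10 (SE).

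Nr1d1 (ENSMUSG00000020889, chromosome 11, 98767932 to 98775333, minus strand) encodes the nuclear receptor that represses Arntl, and its levels set the Ctrl group apart. HC mice had 4.82, 3.86, 4.46 and 4.86 FPKM, and Ctrl mice 3.05, 2.95, 3.01 and 3.72 FPKM. NLH mice had 2.99, 4.96, 5.20 and 5.94 FPKM, and LH mice 5.12, 4.68, 6.91 and 4.82 FPKM. All Ctrl mice lay below all HC and LH mice, and of the NLH mice only NLH1 fell among them. Ctrl minus HC was -0.49 ± 0.19 (SE) on the log2 scale, a ratio of 0.714 (unadjusted limma p 0.0182, adjusted p 1), and with the unnamed transcripts of the locus it was -0.18 ± 0.12 (unadjusted limma p 0.162). LH minus Ctrl was 0.73 ± 0.19, a ratio of 1.66 with a 95% interval of 0.34 to 1.12 in log2 (unadjusted limma p 0.00117, adjusted p 0.148). It was 0.61 ± 0.21 without LH3 and LH4, and adjusted p ranged from 0.0669 to 0.544 over the 26 other settings of the fit, and the difference itself from 0.20 to 0.87, the lowest with the unnamed transcripts of the locus described below. NLH minus Ctrl was 0.53 ± 0.19 (unadjusted limma p 0.0109, adjusted p 0.676) and 0.13 with those transcripts, and LH minus NLH was 0.20 ± 0.19 with overlapping values, 0.08 ± 0.21 without LH3 and LH4 and -0.01 without NLH1. Summed endothelial markers, given above, were also lower in every Ctrl than in every LH mouse, and their part in the Nr1d1 difference was not tested. These 3 differences rest on the same low Ctrl mice.

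Dbp (ENSMUSG00000059824, chromosome 7, 45705088 to 45710203, plus strand), the output gene of the set and one of the most rhythmic RNAs known, was high in HC mice. HC mice had 11.4, 14.4, 15 and 13.1 FPKM, and Ctrl mice 10.3, 9.11, 9.30 and 9.10 FPKM. NLH mice had 6.85, 11, 12.7 and 10.8 FPKM, and LH mice 12.9, 8.39, 12.4 and 8.69 FPKM. Every HC mouse lay above every Ctrl mouse, while NLH and LH mice lay between 6.85 and 12.9 FPKM, overlapping all Ctrl mice and the lowest HC mouse. Ctrl minus HC was -0.50 ± 0.18 (SE) on the log2 scale, a ratio of 0.708 (unadjusted limma p 0.013, adjusted p 1), and the unadjusted p stayed under 0.05 in all 26 other settings. LH minus Ctrl was 0.14 ± 0.18 and LH minus NLH 0.04 ± 0.18, both within the spread of the mice, and 0.14 ± 0.21 and 0.05 ± 0.21 without LH3 and LH4. Over the other settings LH minus Ctrl ranged from 0.03 to 0.24. LH minus NLH ranged from -0.14 to 0.15, its sign turning without NLH1, LH1 or LH3.

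Per2 and Dbp thus differed between HC and Ctrl mice in opposite directions. The ratio of Per2 to Dbp, chosen after these values had been seen, was 0.113, 0.114, 0.0750 and 0.122 in HC mice and 0.214, 0.257, 0.269 and 0.227 in Ctrl mice. It was 0.342, 0.207, 0.211 and 0.240 in NLH mice and 0.193, 0.249, 0.0955 and 0.206 in LH mice. HC mice did not overlap with Ctrl or NLH mice, and LH3 alone of the 12 shuttle-box mice fell in the HC range. A ratio of 2 genes does not change with the scaling of a library. Dbp over Arntl was 4.27 to 6.68 in HC mice and 3.01 to 3.33 in Ctrl mice, again without overlap, while Nr1d1 over Arntl was 1.36 to 1.99 and 0.962 to 1.36, so that the groups met at one value. HC and Ctrl mice differ in handling, in exposure to the shuttle box and in escapable shock, and these cannot be told apart here.

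**Figure D3:**
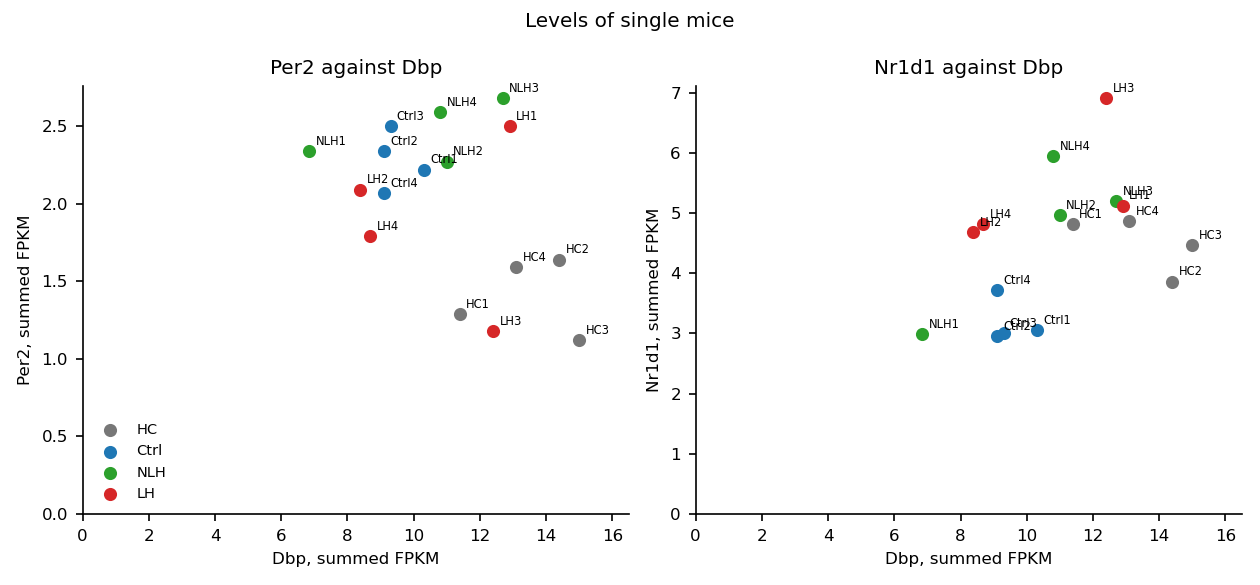
Per2 (left) and Nr1d1 (right) against Dbp, all in summed FPKM on linear axes from 0, with each point 1 mouse colored by group. HC mice sit at high Dbp and low Per2 (at most 1.64), together with LH3, and Ctrl mice at low Dbp and low Nr1d1 (at most 3.72), together with NLH1.

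Whether the genes varied together from mouse to mouse was read from Pearson's r of log2(FPKM + 0.1) for all 45 pairs over 16 mice. None of the pairs passed an adjusted permutation p under 0.05, and 4 had an unadjusted one under 0.05 (2 without HC4 or without NLH1, 7 without LH4, 8 with the unnamed transcripts). Arntl and Per2 had the smallest of these p (r = 0.65, permutation p = 0.00622, adjusted 0.28; Spearman's rho = 0.70, permutation p = 0.00289, adjusted 0.13). This r was 0.46 without the 2 mice farthest from the median of Arntl and 0.40 with group means subtracted, and 0.29 with the unnamed transcripts added. Without LH3 and LH4 it was 0.79, and it was then the 1 pair to pass the adjusted threshold. Per1 and Cry1 had the highest r of all, 0.72 (permutation p = 0.0216, adjusted 0.36; rho = 0.25, permutation p = 0.348, adjusted 0.788). It fell to 0.12 without LH4 and to -0.19 without LH1 and LH4, the 2 mice farthest from the median, so the relation rests on those mice. With all 16 mice it was 0.83 with group means subtracted and 0.46 with the unnamed transcripts.

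Clock and Arntl, which act as partners, had r = 0.52 (permutation p = 0.0372, adjusted 0.36; rho = 0.55, permutation p = 0.0294, adjusted 0.373), 0.46 without the 2 farthest mice and 0.30 with group means subtracted. Clock and Dbp had r = -0.50 (permutation p = 0.0498, adjusted 0.36; rho = -0.50, permutation p = 0.0528, adjusted 0.404), -0.60 without the 2 farthest mice and -0.27 with group means subtracted. Arntl and Nr1d1, which are known to cycle in opposite phase, had r = 0.12 (permutation p = 0.67, adjusted 0.869; rho = 0.31, permutation p = 0.244, adjusted 0.685), 0.09 without the 2 farthest mice, -0.22 with group means subtracted and -0.10 with the unnamed transcripts, so that its sign was not settled. Nr1d1 and Dbp, which are switched on by the same pair of activators and peak close together, had r = 0.49 (permutation p = 0.0531, adjusted 0.36; rho = 0.44, permutation p = 0.0879, adjusted 0.406). That r was 0.63 with group means subtracted and 0.28 without Ctrl2 and NLH1. Over the 45 pairs 34 had a positive r with a median of 0.13, but only 20 did so when mice were scaled by median-ratio size factors, with a median of -0.09. How many pairs were positive thus depended on the scaling of the libraries.

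**Figure D4:**
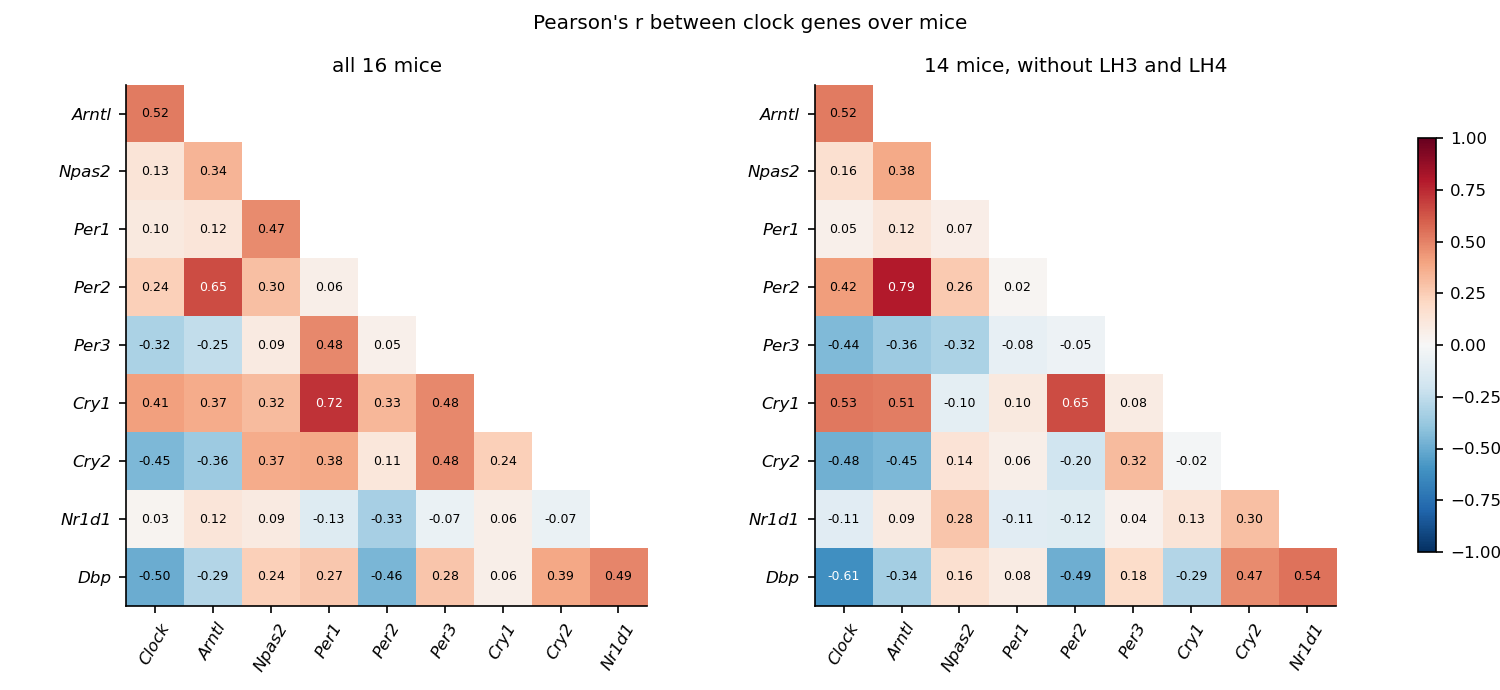
Pearson's r of log2(FPKM + 0.1) for the 45 pairs of clock genes over all 16 mice (left) and over 14 mice without LH3 and LH4 (right), with color from -1 (blue) to 1 (red). Per1 and Cry1 go from 0.72 to 0.10 between the panels, and Arntl and Per2 from 0.65 to 0.79.

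Genes outside the set whose level followed a clock gene most closely were looked up among 10427 genes with a mean of at least 1 FPKM, as a description over 16 mice that share groups and libraries. Dbp was followed most closely by Eme2 (r = 0.80), Hacd4 (0.79) and Nop14 (0.79). For Nr1d1 these were Apod (r = 0.80), Zfp472 (0.78) and Llph (0.76), and for Arntl they were Tubb4a (0.94), Noc3l (0.88) and Zfp1 (0.87). None of these 9 is on the list of clock genes used here. Of 29 clock genes ranked for Dbp, 13 had a positive r, with a median of -0.06. For Nr1d1 and Arntl 22 of 29 were positive, with medians of 0.09 and 0.25. Among all 10435 genes ranked, an r of 0.00 with Arntl stood at rank 7855, so that the positive share was near that of all genes. With Nr1d1 an r of 0.03 stood at rank 5614 and one of -0.04 at rank 6704. With Dbp an r of 0.05 stood at rank 4556 and one of -0.01 at rank 5704. The first clock gene in rank for Dbp, named after its value was seen, was Ciart, a repressor of the loop, at rank 46 of 10435 with r = 0.60. These ranks include the other genes of the set. Tef and Hlf, the closest relatives of Dbp, stood at r = -0.37 and -0.06.

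At the level of transcripts, none of the 33 clock transcripts passed an adjusted p under 0.05 in any comparison, where 0.00374% of all 80137 transcripts did so in Ctrl vs. HC, 0.0125% in NLH vs. Ctrl and 0.0462% in LH vs. Ctrl, and 0.0412% of them in LH vs. NLH. At an unadjusted limma p under 0.05 there were 5 clock transcripts in Ctrl vs. HC (3.45% of all), 1 in NLH vs. Ctrl (5.12%), 5 in LH vs. Ctrl (10.7%), while the LH vs. NLH comparison gave 6 (8.72%). Over the other settings the counts of Ctrl vs. HC, NLH vs. Ctrl and LH vs. Ctrl were 3 to 7, 1 to 2 and 4 to 8. The LH vs. NLH count ranged from 1 to 7 over these settings and was 1 without NLH2, without NLH4, with only the 8 mice compared and with the test of the study's methods, and 3 without HC1, HC4, LH3 or any 1 Ctrl mouse. The main coding transcript of Nr1d1, ENSMUST00000064941.6 with 8 exons, was 2.13, 2.00, 2.07 and 2.37 FPKM in Ctrl mice. It was 2.63 to 3.92 FPKM in HC, 2.67 to 5.02 FPKM in NLH and 2.87 to 4.81 FPKM in LH mice. All 12 other mice lay above all 4 Ctrl mice. LH minus Ctrl was 0.87 ± 0.20 (SE) on the log2 scale (unadjusted limma p 0.000527, adjusted p 0.139), and with median-ratio size factors it was 0.94 and the adjusted p 0.0403. Without LH3 and LH4 it was 1.02 ± 0.21 (adjusted p 0.0618).

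The main coding transcript of Dbp, ENSMUST00000080885.11, carried 52.4% of that gene's FPKM. It was 6.95, 6.89, 8.23 and 9.15 FPKM in HC mice and 3.38, 4.99, 4.90 and 5.08 FPKM in Ctrl mice, a difference of -0.76 ± 0.18 (SE) on the log2 scale (unadjusted limma p 0.000877, adjusted p 1). HC mice lay above all Ctrl and NLH mice here, and LH3 at 7.17 FPKM was the only LH mouse in their range. Per3 was different in kind, since its coding transcript ENSMUST00000103204.10 carried 14.2% of its FPKM, and its leading transcript ENSMUST00000138584.7, which retains an intron, carried 43.2%. The coding transcript, named after its values had been seen, was at most 0.338 FPKM in HC mice, 0.109 to 0.823 FPKM in Ctrl, 0.629 to 1.09 FPKM in NLH and 0.145 to 1.34 FPKM in LH mice, so that only HC and NLH mice did not overlap. The rest of the summed level of Per3 is in transcripts annotated as retaining an intron or as processed transcripts without a coding sequence. Per2 and Cry1 were each listed with 1 named transcript.

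The table also holds 18917 assembled transcripts without a gene name, and some lie in the loci of clock genes. Clock had 5 of them, Nr1d1 4, Per2 3, Per3 3, Per1 2 and Npas2 1, and Arntl, Cry1 and Cry2 had none. Those at Dbp share a locus with Car11 and were not added. At Nr1d1 they held 4.31 FPKM on average, against 4.46 FPKM for the named transcripts, and at Per2 2.45 against 2.01 FPKM. At Npas2 a single unnamed transcript held 1.8 FPKM against 0.657 FPKM, and with it the group means were 2.15 ± 0.220, 2.20 ± 0.155, 2.81 ± 0.572 and 2.68 ± 0.837 FPKM (SD, n = 4) in HC, Ctrl, NLH and LH mice. With them added, Nr1d1 was 8.65 to 9.40 FPKM in HC mice and 7.51 to 8.43 FPKM in Ctrl mice. NLH mice had 6.34 to 10.4 FPKM and LH mice 8.54 to 10.2 FPKM. HC and LH mice still did not overlap with Ctrl mice, but LH minus Ctrl was 0.20 ± 0.12 (SE) on the log2 scale (unadjusted limma p 0.126), in place of 0.73. Ctrl minus HC was -0.18 ± 0.12 for Nr1d1 in place of -0.49, and NLH minus Ctrl 0.13 in place of 0.53.

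For Per2 the levels with the unnamed transcripts were 3.75 to 4.16 FPKM in HC and 4.83 to 5.12 FPKM in Ctrl mice, without overlap. The difference was 0.34 ± 0.12 (SE) on the log2 scale (unadjusted limma p 0.0118), in place of 0.67. NLH mice had 3.72 to 5.55 FPKM and LH mice 3.69 to 4.75 FPKM, and NLH1 and LH4 then lay below every HC mouse. LH minus NLH was -0.08 in place of -0.41. LH4, the lowest mouse for Per1 at 1.28 FPKM, stood at 5.30 FPKM with the unnamed transcripts and was still the lowest. The size of the Nr1d1 and Per2 differences thus depended on which transcripts of the locus were summed, while their direction in Ctrl vs. HC was the same with both sums. The strand of the reads is not stated in the sources used here. Nr1d1 overlaps Thra on the opposite strand over 1075 bases and Dbp overlaps Sphk2 over 737 bases in GENCODE vM21, and reads from such stretches cannot be told apart without strand. Per3 lies within Camta1 on the same strand.

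**Figure D5:**
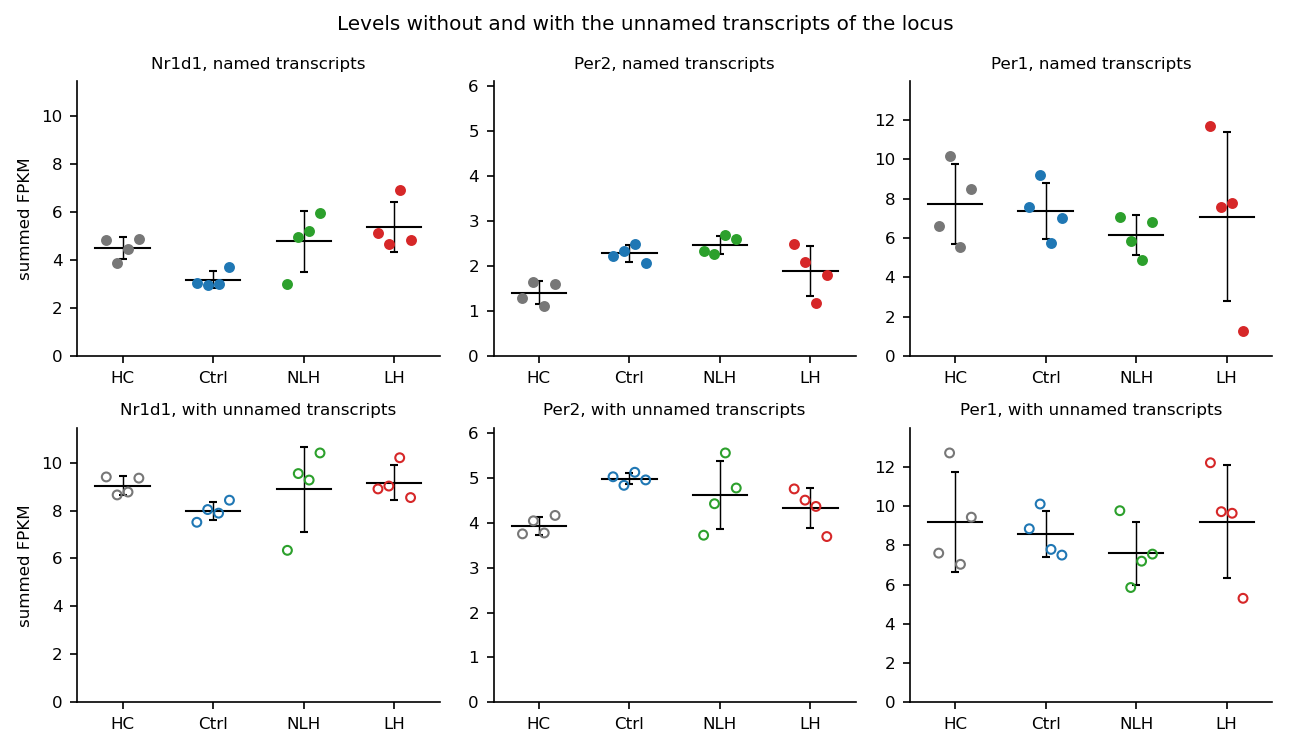
Summed FPKM by mouse for Nr1d1, Per2 and Per1 from named transcripts (upper row, filled points) and with the unnamed assembled transcripts of the locus added (lower row, open points), on a shared linear scale within each column, with the mean and 1 SD (n = 4). Ctrl stays below HC for Nr1d1 and above HC for Per2 in both rows, with a smaller relative distance in the lower one.

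Other genes of the clock pathway were taken from a list of 25, of which 24 were measured and Nono was not listed. None passed an adjusted limma p under 0.05. At an unadjusted p under 0.05, 2 were higher and 0 lower in Ctrl vs. HC, 0 higher and 1 lower in NLH vs. Ctrl, and 5 higher and 1 lower in LH vs. Ctrl. LH vs. NLH gave 2 higher and 0 lower, against the same backgrounds as above. The median log2 difference of the list was 0.05, 0.06, 0.10 and 0.05 in these comparisons, beside 0.02, 0.06, -0.00 and -0.06 over all genes. Among genes of the list with a mean of at least 1 FPKM, the largest differences in LH vs. Ctrl were those of 3 enzymes that modify clock proteins. Usp2, a deubiquitinase and itself a rhythmic RNA, was 4.6 to 7.88 FPKM in LH and 2.90 to 4.10 FPKM in Ctrl mice without overlap, a log2 difference of 0.86 ± 0.20 (SE) with an unadjusted limma p of 0.000515 and an adjusted p of 0.135, and of 0.81 ± 0.24 without LH3 and LH4. Csnk1d, the kinase that marks PER proteins for decay, had a difference of -0.62 ± 0.20 (adjusted p 0.229), and Gsk3b, a kinase of NR1D1 and other clock proteins, 0.36 ± 0.10 (adjusted p 0.168). Without LH3 and LH4, Gsk3b differed by 0.45 ± 0.10 and passed the threshold with an adjusted limma p of 0.0295, where 989 of 18260 genes passed, and Csnk1d differed by -0.33 ± 0.20. With median-ratio size factors Csnk1d passed with an adjusted limma p of 0.049, where 49 of 18287 genes passed.

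Because Per1 and Per2 also respond to glucocorticoids and to neural activity, lists of such genes were read beside them. Of 15 glucocorticoid response genes 14 were measured (Tsc22d3 was not listed), and none passed an adjusted limma p under 0.05. At an unadjusted p under 0.05, 4 were higher and 0 lower in Ctrl vs. HC (2.7% of all genes in either direction), with a median log2 difference of 0.41 beside 0.02 over all genes. The counts were 0 higher and 3 lower in NLH vs. Ctrl (5.59%), and 3 higher and 2 lower in LH vs. Ctrl (11.5%), while LH vs. NLH gave 0 higher and 1 lower (7.54%), a share near that of all genes. Among those with a mean of at least 1 FPKM, the largest differences in LH vs. Ctrl were -1.52 ± 0.58 (SE) for Hif3a, -0.61 ± 0.24 for Zbtb16 and 0.54 ± 0.22 for Pdk4, with adjusted p of 0.326, 0.343 and 0.345, and these were -1.50, -0.25 and 0.42 without LH3 and LH4. Of 11 immediate early genes, which follow neural activity within minutes to hours, 10 were measured (Ier2 was not listed), and 3 were higher and 0 lower in Ctrl vs. HC at an unadjusted p under 0.05 (2.7% of all genes), with a median of 0.32. Among these, Junb, named after its values were seen, was listed at 0 in all HC, NLH and LH mice and reached 0.142 FPKM in Ctrl mice, and without it the count was 2. They numbered 0 higher and 1 lower, again Junb, in NLH vs. Ctrl (5.59% of all genes) and in LH vs. Ctrl (11.5%), while LH vs. NLH gave 0 (7.54%). In LH vs. Ctrl, Egr1 differed by 0.24 ± 0.14, Fos by 0.19 ± 0.39 and Nr4a1 by -0.13 ± 0.28 on the log2 scale, with adjusted limma p of 0.535, 0.893 and 0.907, and by 0.32, 0.92 and 0.11 without LH3 and LH4. The part of these genes in the Per2 difference between Ctrl and HC mice was not tested.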

How the data were processed

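RNA levels of 16 mouse hippocampi (4 HC, 4 Ctrl, 4 NLH, 4 LH) were read from a single file of transcript values. According to the authors' methods, reads were aligned to mm10 with HISAT2, transcripts were assembled and merged with StringTie (version 1.2.3 per the labels, which also name STAR 2.42a) and quantified with Cufflinks as FPKM. The deposited FPKM values are not logged or further scaled. They are not counts, so no counting interval is given, and precision rests on 4 mice a group. Every column of values matched a sample.

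FPKM were summed over the transcripts of each gene name. Limma 3.58.1 (R 4.3.3, data.table version 1.17.8) with trend and robust moderation modelled log2(FPKM + 0.1) by group, using every mouse, and p was adjusted by the Benjamini-Hochberg method over all 18287 genes or 80137 transcripts. Fold changes of low genes are understated on this scale. The methods' Student's test on FPKM was an alternative. Correlations used 100000 permutations, adjusted over 45 pairs. Python 3.11.15, numpy 2.4.6, pandas 2.3.3, scipy 1.17.1 and matplotlib 3.10.9 were used, and positions came from GENCODE vM21. Fits were tested on simulated data.

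The genes, lists and tests were chosen with earlier results of these data known. Beside the 10 clock genes, the text names, from 3 lists, the genes with the largest change in LH vs. Ctrl at a mean of at least 1 FPKM. It also names the genes most alike to Dbp, Nr1d1 and Arntl, and the leading transcripts of Clock, Arntl, Per1, Per3, Nr1d1 and Dbp. Other genes are marked as named after their values were seen. Alternatives changed 1 choice at a time: 0.01 or 1 added before the logarithm, a mean of at least 1 FPKM, median-ratio size factors, only 8 mice, the mouse number as a block, the leading transcript, and each mouse or LH3 and LH4 left out. Student's test changed several at once, since it used FPKM without logarithm, no moderation and only the 8 mice compared. Adding unnamed transcripts was chosen after seeing the data.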

Additional observations from a re-analysis of the deposited data

Results flagged for a closer look

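In 5 of 40 groups of 4 mice, 1 mouse stood farther from the others than Dixon's 95% limit of 0.829 allows, and chance alone flags about 1 in 20 groups. Per3 was 5.5 FPKM in NLH3, above the other NLH mice. Cry1 was 0.844 FPKM in LH4, the mouse with the most transcripts at 0, below the other LH mice. Cry2 was 10.4 FPKM in NLH1, below the other NLH mice. Nr1d1 was 3.72 FPKM in Ctrl4 and Dbp 10.3 FPKM in Ctrl1, each above the other Ctrl mice, which lay close together.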

How the results depend on the processing

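The count of clock genes at an adjusted p under 0.05 stayed at 0 in the 4 comparisons under all 26 other settings. Without LH3 and LH4, Per2 passed the F test over the 4 groups (1 gene), where 771 of 18260 genes passed, against 14 of 18287 in the main fit. In that setting 1 pair of genes passed the adjusted threshold of the correlations. There 1 other clock gene also passed in LH vs. Ctrl, where 989 genes passed. With median-ratio size factors 1 clock transcript passed in LH vs. Ctrl and 1 other clock gene, where 49 of 18287 genes passed. Student's test gave 1 other clock gene (Btrc in Ctrl vs. HC, named after its value was seen), where 4 of 18052 genes passed. Size factors lowered the pairs with a positive r from 34 to 20. Leaving out each mouse in turn gave 0 calls of genes, transcripts and listed genes throughout, and 0 to 1 pair, the 1 without LH3. The LH minus Ctrl difference of Per1, -0.40, was 0.05 with unnamed transcripts and 0.37 without LH3 and LH4, and ranged from -0.76 to 0.28 with 1 mouse left out, where LH4 gave 0.28. Of the 40 differences of clock genes, 9 were followed singly through the settings, and the other 31 were recomputed 802 times and took the other sign 55 times, in 18 of them, none with a main unadjusted p under 0.135, and the smallest p on the other side was 0.0247 (Per1 in LH vs. NLH, -0.15, and 0.62 without LH3 and LH4). Mouse numbers did not pair the mice (median r -0.023 over 24 same-numbered pairs), and with the replicate block Per2 was 0.67 in Ctrl vs. HC and 0 clock genes passed. Limiting the sums to transcripts with Ensembl identifiers leaves them as they are, since only those carry gene names. Low genes such as Npas2 and 4 mice a group limit what could be detected.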
